A study of Mus musculus with 2 samples.

Results

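The genes described here are 9 transcription factor genes of the activation response of lymphocytes, namely the EGR genes Egr1, Egr2 and Egr3, the NR4A genes Nr4a1, Nr4a2 and Nr4a3, and the NFAT genes Nfatc1, Nfatc2 and Nfatc3. They were chosen by name. All peak summits inside the gene body or within 10 kb of either end, on the mouse build mm10, were taken as theirs. The 9 genes are a small part of the 21631 protein-coding genes of chromosomes 1 to 19 and X, and their 59 summits are 0.134% of the 44058 peaks of the optimal list. The data are ChIP-seq (chromatin immunoprecipitation and sequencing) with an antibody against IRF4 in CH12.LX, an immortalized female B-cell lymphoma line of mouse strain B10.H-2aH-4bp/Wts. The samples form 1 group of 2 biological replicates. The labels name no treatment and no genotype other than the strain, and a control experiment that they name was not used here. RNA was not measured, so whether these genes were active in the cells is not known from these data, and the identity of the line rests on its label.

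EGR proteins are zinc finger factors and NR4A proteins are orphan nuclear receptors. Both families are immediate early genes, transcribed within a short time of antigen receptor stimulation, in part through the ERK kinases and the serum response factor SRF. NFAT proteins wait in the cytoplasm until calcium activates the phosphatase calcineurin, which lets them enter the nucleus. IRF4 is itself induced by antigen receptor signals in B cells and binds DNA mostly at composite elements shared with ETS or AP-1 partners.

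Stretches of promoter are shown first, because summits at gene starts and at other sites form a main contrast among these genes. The first 3 hold a summit of the optimal list, and the last, of Nr4a1, had its nearest summit 9843 bp away. Each is a RefSeq sequence of GRCm38.p6, on the strand of the gene, from 250 bases before the start to 50 from the start onward. Capitals mark matches to any of 12 motifs searched on both strands, of which SRE and NF-kB are given by name and the others by their letters. The Egr2 promoter is chr10:67537619-67537918 (plus strand), Nr4a2 is chr2:57123954-57124253 (minus strand), Nfatc3 is chr8:106058568-106058867 (plus strand) and Nr4a1 is chr15:101266596-101266895 (plus strand).
Egr2: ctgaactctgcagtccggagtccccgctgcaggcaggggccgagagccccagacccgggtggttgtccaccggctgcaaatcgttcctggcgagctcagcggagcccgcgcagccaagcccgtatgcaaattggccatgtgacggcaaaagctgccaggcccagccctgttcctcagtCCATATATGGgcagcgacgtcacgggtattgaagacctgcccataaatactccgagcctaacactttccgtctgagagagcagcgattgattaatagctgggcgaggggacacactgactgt
Nr4a2: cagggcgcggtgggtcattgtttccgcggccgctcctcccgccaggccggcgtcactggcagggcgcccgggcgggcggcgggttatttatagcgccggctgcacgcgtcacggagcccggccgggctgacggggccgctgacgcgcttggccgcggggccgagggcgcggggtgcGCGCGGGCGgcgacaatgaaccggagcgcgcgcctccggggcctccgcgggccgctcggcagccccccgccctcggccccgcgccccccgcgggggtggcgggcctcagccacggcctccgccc
Nfatc3: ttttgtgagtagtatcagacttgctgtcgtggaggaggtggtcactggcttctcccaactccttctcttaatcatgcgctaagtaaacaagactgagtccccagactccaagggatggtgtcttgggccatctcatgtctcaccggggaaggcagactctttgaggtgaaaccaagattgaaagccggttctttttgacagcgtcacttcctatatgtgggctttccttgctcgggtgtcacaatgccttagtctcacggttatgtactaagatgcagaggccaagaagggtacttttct
Nr4a1: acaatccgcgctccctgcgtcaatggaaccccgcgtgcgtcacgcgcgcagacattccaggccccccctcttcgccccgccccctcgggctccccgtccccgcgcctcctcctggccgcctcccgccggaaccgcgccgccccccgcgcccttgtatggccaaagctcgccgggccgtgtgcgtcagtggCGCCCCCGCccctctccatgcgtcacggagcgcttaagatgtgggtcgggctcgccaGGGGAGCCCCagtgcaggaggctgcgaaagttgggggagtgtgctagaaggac

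In the Egr2 promoter the capitals are a serum response element (SRE), the site of SRF, from 72 to 63 bases before the start, while the summit lay 105 bp before it. The SRE was in 1.63% of the 32851 promoters of the table. The Nr4a2 promoter had 1 EGR site (GCGNGGGCG) from 74 to 66 bases before its start, and the Nr4a1 promoter had 1 from 60 to 52 bases before its start. That motif was in 5.55% of promoters. The NF-kB motif overlapping the Nr4a1 start was in 4.51% of promoters. None of the 12 motifs matched in the Nfatc3 stretch. A match describes these letters and does not show that a factor was bound.

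For 6 genes the strongest peak of the mm9 list is shown next, since the sequence in use was of that build. This separate list held 27671 peaks, with none in the window of Nr4a1. Windows on mm9 used GENCODE M1 gene bounds, not the RefSeq bounds used on mm10, so a window can differ between the builds. The strongest Nr4a1 summit on mm10 lay 7408 bp before the outer RefSeq start but 20352 bp before the other listed start. Whether the mm9 list had a peak there was not examined. For Nfatc2 the lists differ in order: the downstream peak shown had 110.5 on mm9, against 90.2 for the peak 10747 bp into the gene, while in the optimal list the downstream peak had 73.3 and the one in the gene 86.8. Each stretch runs 50 bases to either side of the summit on the plus strand of the genome. They are chr10:66998857-66998957 in an intron of Egr2, chr14:70469228-70469328 upstream of Egr3, chr2:56976623-56976723 upstream of Nr4a2, chr4:48056291-48056391 upstream of Nr4a3, chr2:168298482-168298582 downstream of Nfatc2 and chr8:108578301-108578401 upstream of Nfatc3. Capitals again mark motif matches.
Egr2: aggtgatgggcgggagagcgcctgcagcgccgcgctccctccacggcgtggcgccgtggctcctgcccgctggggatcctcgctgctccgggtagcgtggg
Egr3: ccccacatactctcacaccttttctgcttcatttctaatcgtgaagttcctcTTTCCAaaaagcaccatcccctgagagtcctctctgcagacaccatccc
Nr4a2: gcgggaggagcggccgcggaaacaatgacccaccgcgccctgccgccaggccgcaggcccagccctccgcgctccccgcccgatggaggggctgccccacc
Nr4a3: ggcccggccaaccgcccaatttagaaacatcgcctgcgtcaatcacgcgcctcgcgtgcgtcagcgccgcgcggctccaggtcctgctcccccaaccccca
Nfatc2: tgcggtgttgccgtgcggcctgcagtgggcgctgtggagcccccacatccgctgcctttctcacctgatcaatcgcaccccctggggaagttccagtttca
Nfatc3: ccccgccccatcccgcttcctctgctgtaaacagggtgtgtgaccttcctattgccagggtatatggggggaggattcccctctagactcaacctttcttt

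Of these 6 stretches, that of Egr3 held the only match, an NFAT core (TGGAAA, here on the minus strand) 2 to 7 bases past the summit. The core is short and was in 12.9% of all mm9 summit windows. No sequence is shown for Egr1 and Nfatc1.

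IRF4 summits were found at all 9 genes, where 62.3% (95% Wilson interval 61.7 to 63.0) of all protein-coding genes had at least 1 summit in the same window. Likewise all 9 had 2 or more summits, against 43.3% of all genes. Nfatc1 had 26 summits, Nfatc2 had 8 and Nfatc3 had 6. Egr1, Egr2 and Nr4a1 had 4 each, Nr4a3 had 3, and Egr3 and Nr4a2 had 2 each. The median was 4 for the 9 genes and 1 for all genes. Nfatc1 alone held 44.1% of the 59 summits, and 33 lay at the other 8 genes. Intervals here cover counting error over genes or peaks, which are not replicates, and p-values are not given because the genes were chosen with results of these data known.

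Long genes have room for more summits: across all genes the count and the window length had a Spearman correlation of 0.35, as a description over genes that are not independent. The windows of the 9 genes ran from 23.75 kb for Egr1 to 145.25 kb for Nfatc2, against a median of 37.3 kb for all genes. Per 100 kb, Nfatc1 stood highest with 20.5 summits, a density that 98.2% of all genes did not reach. Next came Egr1 with 16.8, Egr2 with 14.4, Nr4a1 with 9.78 and Egr3 with 7.91. Nfatc3 had 6.54, Nfatc2 5.51, Nr4a2 5.38 and Nr4a3 4.89. The median density was 7.91 for the 9 genes and 2.34 for all genes. For the short EGR genes most of the window is flank, so their density rests on few summits.

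**Figure D1:**
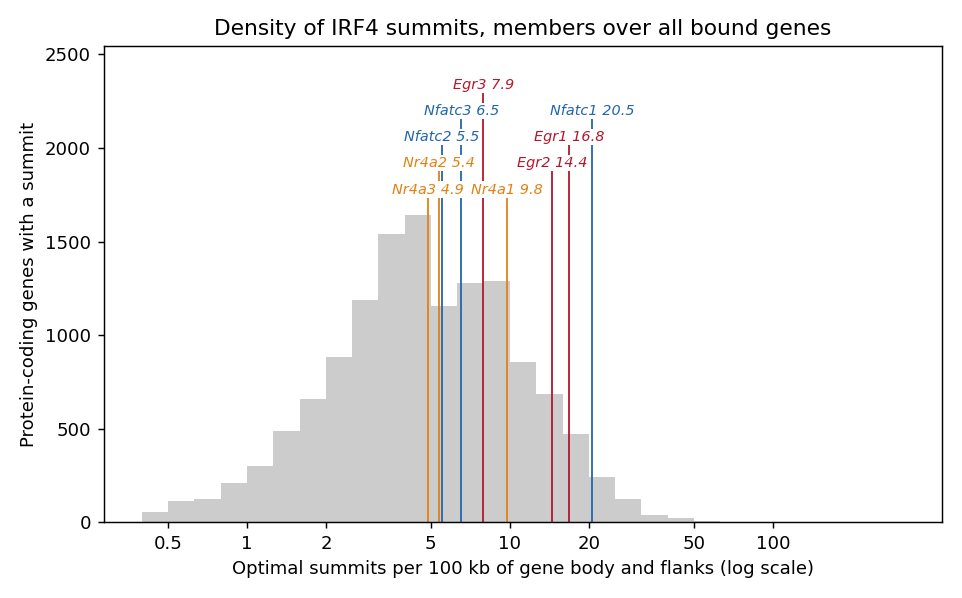
Optimal summits per 100 kb of gene body and 10 kb flanks (x axis, log scale) against the number of protein-coding genes with a summit (y axis, grey bars); coloured lines mark the 9 genes with their values. Nfatc1 (20.5), Egr1 (16.8) and Egr2 (14.4) lie to the right of the bulk of genes, while Nr4a3 (4.89) lies within it.

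Peak strength at these genes was near that of the list. The signal given with each peak is the authors' own value, on a scale that the sources do not describe, and serves to rank peaks within a list. The 59 values ran from 11.6 to 161 with a median of 36.9, beside 6.92 to 480.4 with a median of 41.4 for all optimal peaks. Of the 59, 16 were in the strongest quartile of the list and 16 in the weakest. At a signal of 100 or more, a round value chosen for description, there were 6 summits at 3 genes: 4 at Nfatc1 and 1 each at Egr1 and Egr3. Such strong summits made up 12.9% of all optimal peaks, and 15.3% of all genes had one in the window. All 6 were in the conservative list, as was each of the 59 with a signal above 34.93. All 6 also matched in both replicates.

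**Figure D2:**
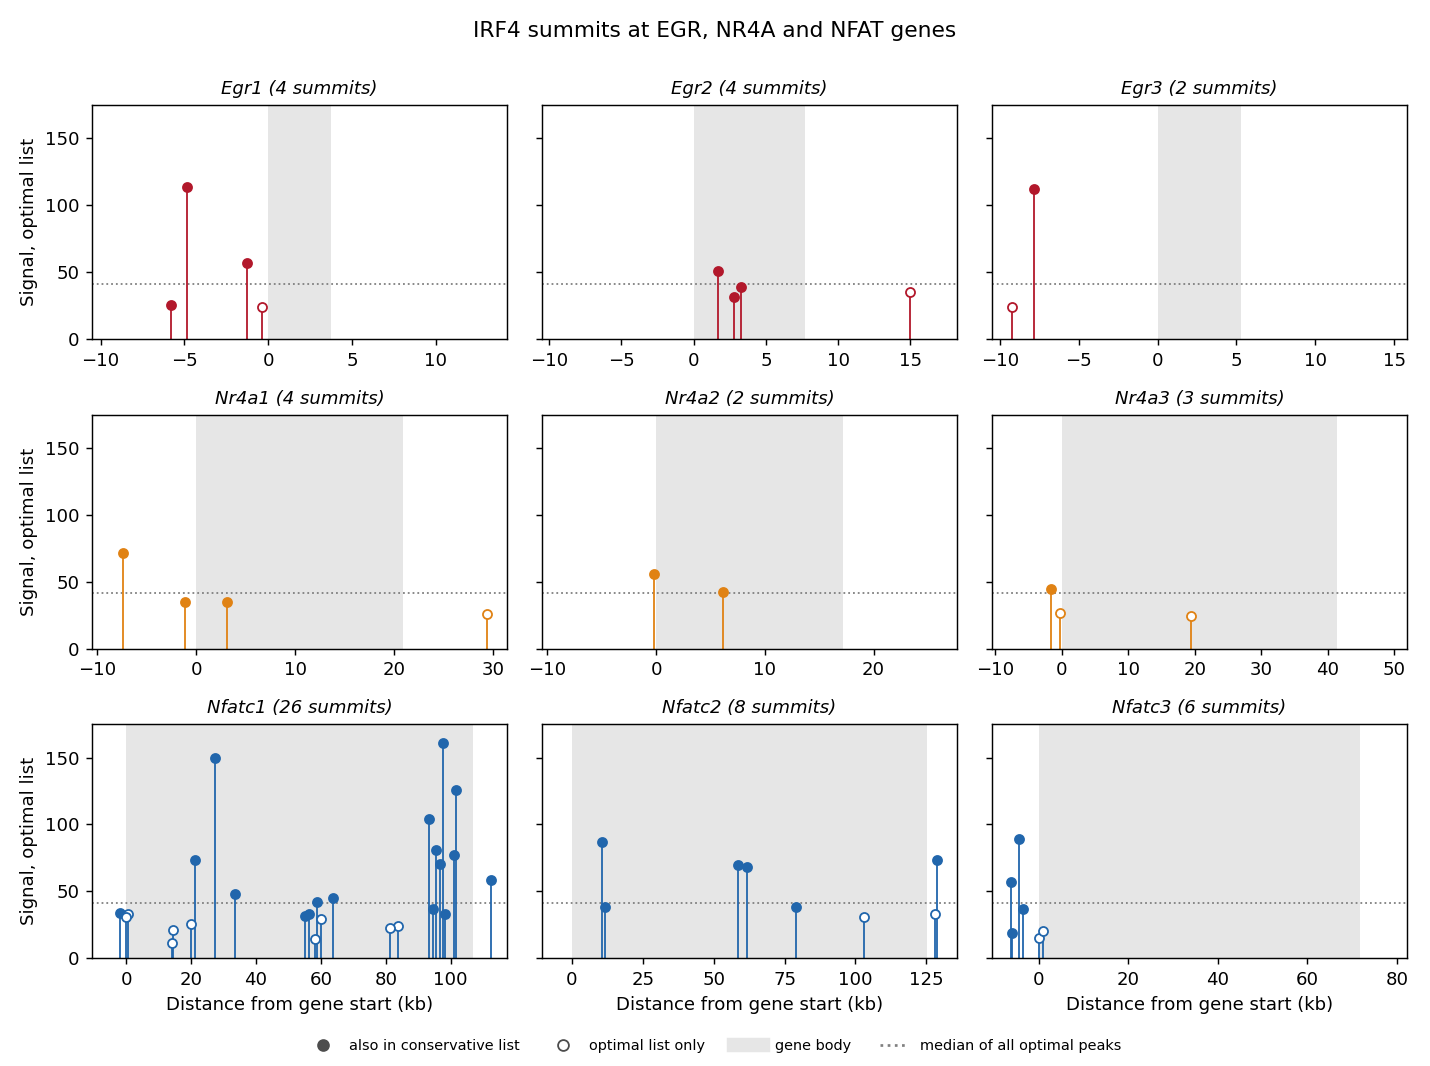
Signal of each optimal summit (y axis, caller's units) by its distance from the gene start in kb, in the direction of transcription (x axis), for each gene. Filled points are also in the stricter conservative list, open points are not, grey is the gene body and the dotted line is the median of all optimal peaks (41.4); all summits of Egr1 and Egr3 lie upstream, and 8 of the 26 of Nfatc1 lie in a stretch 93280 to 101765 bp from its start.

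Among the EGR genes, Egr1 and Egr3 had their strongest sites upstream, at nearly equal signal. Egr1, the zinc finger factor most widely used as a sign of recent stimulation, carried 4 summits, all upstream (chromosome 18, mm10). The strongest lay 4852 bp before the start (34856186 to 34856525) with a signal of 114, and 54.7 in replicate 1 and 64.0 in replicate 2. The one 1264 bp before the start had 56.9, with 26.5 and 36.1 in replicates 1 and 2. The outermost, 5785 bp before the start, had 25.4, with 21.8 in replicate 1 and no replicate 2 summit within 100 bp. At the promoter itself, 367 bp before the start, the signal was 24.3, matched at 31.1 in replicate 2 only, and the peak was not in the conservative list. The promoter peak and the outermost one thus had nearly the same signal, and the strongest stood over both in the replicates that matched them.

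Egr3, which acts with Egr2 in restraining T-cell activation, had 2 summits, both far from its start. The summit 7816 bp upstream (chromosome 14, 70069332 to 70069671, mm10) had a signal of 112, with 59.0 in replicate 1 and 63.3 in replicate 2. The other, 9247 bp upstream, had 24.3, with 5.50 in replicate 1 and 18.02 in replicate 2, and was not in the conservative list. No summit lay in the Egr3 body or within 5 kb of it.

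Egr2 had moderate summits inside the gene as bounded by its outermost start, some of them upstream of starts listed further in. RefSeq gives it several starts, and the outermost was used to measure distance. Summits 1684 bp, 2820 bp and 3295 bp from that start had signals of 50.9, 31.3 and 38.7. They lay 654 bp after, 277 bp before and 105 bp before the nearest listed start. In replicate 1 these were 23.3, 14.2 and 15.1, and in replicate 2 they were 26.5, 17.4 and 23.6, so replicate 2 was the higher at each. All 3 were in the conservative list. The first also lay within the long noncoding gene Gm32255. A further summit 7271 bp past the gene end (34.9) was 504 bp from the start of Ado, had 7.12 in replicate 1 and no match in replicate 2, and was not in the conservative list.

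The NR4A genes had no summit at 100 or more. Nr4a1 encodes NUR77, a widely used reporter of antigen receptor signalling. It had its strongest summit 7408 bp before the outer RefSeq start (chromosome 15, 101246325 to 101246664, mm10), with 71.4 in the optimal list, 29.9 in replicate 1 and 39.6 in replicate 2. Summits 1120 bp before and 3101 bp after that start had 34.5 (16.9 and 14.7 in replicates 1 and 2) and 35.0 (11.5 and 20.7). The fourth, 8517 bp past the gene end with 26.1, was 989 bp from the start of Atg101 and was matched only in replicate 2 (23.4). The start whose sequence is shown above, inside the gene, had none of these within 9 kb.

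Nr4a2, which encodes NURR1, had a promoter summit as its strongest site. It lay 228 bp before the start (chromosome 2, 57124062 to 57124401, mm10) with a signal of 55.9, and 20.4 in replicate 1 and 37.8 in replicate 2. RefSeq places a second protein-coding gene, LOC105244150, over this summit, so it cannot be given to 1 gene. A summit 6196 bp into Nr4a2 had 42.1, with 11.4 and 30.0 in the replicates. Both were in the conservative list. Nr4a3, which encodes NOR1, had the lowest maximum of the 9 genes, 44.3 at a summit 1561 bp before the start (16.6 in replicate 1 and 32.4 in replicate 2). Its summits 191 bp before the start (27.0) and 19456 bp after it (24.4) were not in the conservative list. In these last 2, replicate 1 was the higher, with 15.7 against 10.3 and 12.8 against 9.48.

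Nfatc1 differed from the other 8 genes in the number of its summits. With genes bounded by their outermost start, its strongest summit lay in the gene body, as did those of Egr2 and Nfatc2. The strongest of each remaining gene lay upstream of its outermost start. Nfatc1 encodes NFATc1, an NFAT protein whose short form is itself induced on activation. Of its 26 summits, 23 were in the gene body, and 31 of all 21631 genes had as many or more. The signals ran from 11.6 to 161 with a median of 35.4. Within the last part of the gene, 8 summits fell in 8485 bp, from 93280 to 101765 bp after the start and 5101 to 13586 bp before the gene end. Their signals ran from 32.9 to 161 with a median of 79.0, and 6 of the 8 were above the median of all optimal peaks.

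The 4 strongest Nfatc1 summits were all in the gene body (chromosome 18, mm10). The first (80615341 to 80615472, signal 161) had 79.4 in replicate 1 and 82.4 in replicate 2. The next (80685813 to 80685900, signal 150.0) lay outside the dense stretch, 27224 bp after the start, with 55.7 and 92.1. The third (80611137 to 80611476, signal 126) had 38.5 and 84.9, and the fourth (80619622 to 80619961, signal 104) had 55.9 and 50.2. Replicate 1 was the higher only at the fourth, where the log2 ratio of replicate 2 over replicate 1 was −0.15. Over the matched summits this ratio had a median of 0.38 and an SD of 0.63. That SD is a spread between summits and does not measure error at 1 summit. With 1 value per replicate, the order here is not resolved. At the start itself, summits 98 bp before and 635 bp after it had 30.8 and 33.1, with replicate 1 values of 7.94 and 9.31 and replicate 2 values of 23.3 and 23.5. Neither was in the conservative list, whereas 17 of the 26 Nfatc1 peaks were.

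Nfatc2 and Nfatc3 encode NFAT1 and NFAT4, NFAT proteins that calcineurin activates. Nfatc2 is the longest of the 9 genes and had 8 summits spread along it. The strongest (chromosome 2, 168590689 to 168591028, mm10) had a signal of 86.8, with 37.2 in replicate 1 and 48.4 in replicate 2. It was 10799 bp after the outer start, yet 493 bp before a second RefSeq start within the gene. Another with 38.6 lay 317 bp after that second start. The outer start had no summit nearer than the first of these. Summits 58453 bp and 61604 bp into the gene had 69.4 (24.3 in replicate 1 and 45.2 in replicate 2) and 68.5 (25.6 and 45.6). Of the 2 past the gene end, the farther had 73.3, with 34.4 and 39.9 in replicates 1 and 2.

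Nfatc3 had 4 of its 6 summits in a stretch 3651 to 6161 bp before the start. The strongest, 4339 bp before it (chromosome 8, 106054310 to 106054649, mm10), had 89.2, with 48.2 in replicate 1 and 42.6 in replicate 2. A summit 3651 bp before the start had 36.6, and the outer pair had 56.7 and 19.2 and lay within the neighbouring gene Dus2. The promoter summits were weak. That 1 bp from the start had 15.3. That 853 bp after it had 20.5 and lay 81 bp after a second listed start. Each was matched in replicate 2 only, at 11.6 and 5.73, and neither was in the conservative list. The body of Nfatc3, 71.7 kb long, had no summit beyond these.

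By position, of the 59 summits, 17 were upstream, 37 in gene bodies and 5 downstream. Within 1 kb of the outer start of their own gene there were 7, at 5 of the 9 genes, and 31.9% of all genes with a start had such a summit. Within 1 kb of the outer start of any protein-coding gene there were 9 of 59 (15.3%), the summits beside Ado and Atg101 included, against 17.6% of all optimal summits. The median signal of the 7 was 27.0, with a highest value of 55.9, while the other 52 had a median of 38.7. Only 1 of the 7, at Nr4a2, was in the conservative list. The result depended on which starts were counted. An alternative chosen after seeing the data used every start listed in the RefSeq tables. With it, 12 summits at 7 of the 9 genes were within 1 kb of a start of their own gene, with a median of 32.2. Of all genes, 35.0% had such a summit. The highest was then the 86.8 of Nfatc2. With every listed start of any protein-coding gene, 14 of 59 (23.7%) were within 1 kb, against 20.3% of all optimal summits. The share was thus below that of the list with outer starts and above it with all listed starts. For Egr1, Egr3 and Nfatc1 the promoter table lists no start, so only their outer start was counted throughout. The nearest protein-coding start was that of the gene itself for 57 of the 59.

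The optimal list was made from the lists of these replicates and keeps peaks for being reproducible, so a match back to them follows in large part from how the peaks were chosen and is given as a description. Of the 59 summits, 47 (79.7%) had a summit within 100 bp in both replicates, against 85.4% of all optimal peaks. Replicate 1 lacked a match at 8 and replicate 2 at 4, and none lacked both. At the 47 matched summits replicate 1 ran from 5.50 to 79.4 with a median of 17.98, and replicate 2 from 5.89 to 92.1 with a median of 27.9. Replicate 2 was the higher at 37 of the 47, as at 82.8% of all matched optimal peaks. As a log2 ratio over replicate 1, replicate 2 stood at a median of 0.38 (SD 0.63 over 47 summits), beside 0.53 (SD 0.66) over the 37635 peaks matched in the whole list. Differences between summits smaller than this spread are not resolved. It ranged from −0.79 at the Nfatc1 summit 58216 bp after the start to 1.71 at the outer Egr3 summit. The Spearman correlation of the replicate signals was 0.74 over the 47 and 0.72 over all matched peaks, given with no p because peaks of a library share its depth.

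**Figure D3:**
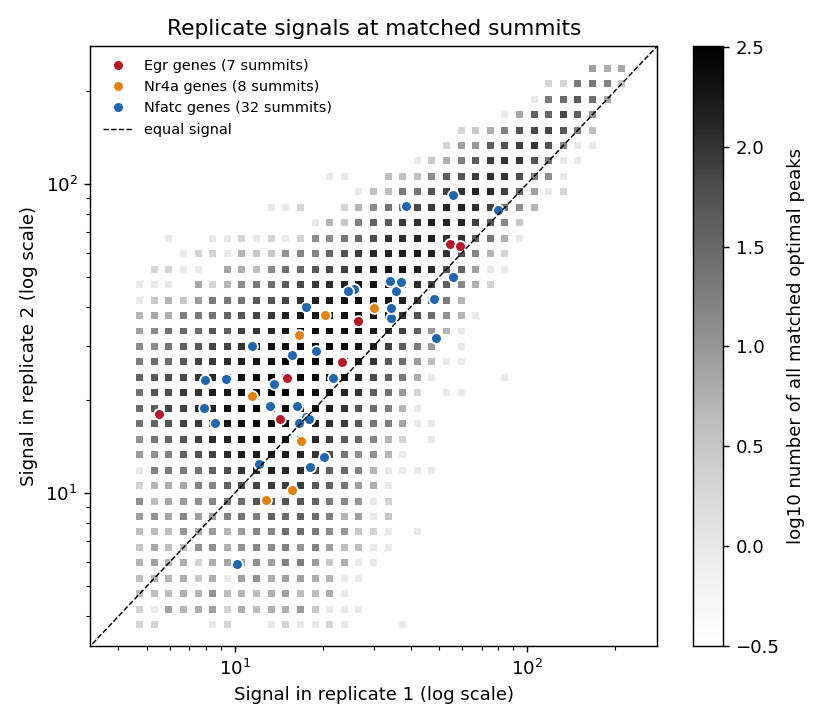
Signal in replicate 2 (y axis, log scale) against replicate 1 (x axis, log scale) at summits matched within 100 bp in both; coloured points are the 47 matched summits of the 9 genes, grey squares the number of all matched optimal peaks, and the dashed line marks equal signal. Points lie mostly above the line, as the grey squares do.

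In the conservative list, 40 of the 59 peaks (67.8%) were present as the same interval, beside 72.3% of all optimal peaks. The strongest of the 19 absent ones had 34.9, at the far end of Egr2. Each of the 9 genes kept at least 1 peak, where 57.4% of all genes had a conservative summit in the window.

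The mm9 list, made from both replicates together, gave 33 peaks at 8 of the genes, in windows drawn from GENCODE M1 gene bounds. Nfatc1 had 16, Nfatc2 6, Egr1 4, Egr2 and Nfatc3 2 each, and Egr3, Nr4a2 and Nr4a3 1 each. By GENCODE transcripts on that build, 20 were in introns, 10 upstream, 2 downstream and 1 in an untranslated exon, of Nfatc1. Signals in this list are on a scale of their own. The strongest value was 191 at Nfatc1, and outside Nfatc1 the highest were 174.6 at Egr3, 7974 bp upstream, and 164 at Egr1, 4821 bp upstream. The median of the 33 was 79.0, beside 70.1 for the list.

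An IRF element of any kind searched was at 3 of the 33 mm9 summits (9.09%), against 16.0% of all mm9 peaks. The ETS-IRF composite element (EICE, GGAANNGAAA), the joint site of IRF4 and an ETS partner such as PU.1, lay no more than 50 bp from 3 of the 33 summits, or 9.09%, against 8.68% of all mm9 peaks. These 3 were the outermost Egr1 summit, 5878 bp upstream (signal 42.0), and a pair in the Nfatc1 body (87.6 and 89.8). The tandem IRF element (ISRE, GAAANNGAAA) and the AP-1-IRF elements GAAATGANTCA and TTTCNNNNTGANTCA were at 0 of the 33, against 5.79%, 1.13% and 1.12% of all peaks. A count of 0 in 33 has an upper Wilson bound of 10.4%. The AP-1 site itself (TGANTCA) was at 2, both in Nfatc1 and both among its strong peaks (188 and 121), which is 6.06% against 16.0% of all peaks. Both AP-1-IRF elements contain the AP-1 site.

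Sites of the factors that these genes encode or answer to were also searched. The NFAT core TGGAAA was at 6 of 33 summits (18.2%, against 12.9% of all peaks), and in all 3 EICE windows it occurred too; GGAA is shared by both motifs. The SRE was at 1 summit, 377 bp before Egr1 (signal 48.8), against 0.455% of all peaks. NF-kB sites were at 1, the mm9 peak 6177 bp before Nfatc3, against 5.70%. The PU.1 site GAGGAAGT, the cyclic AMP element TGACGTCA, the EGR site and the NR4A site AAAGGTCA were at none, against 4.93%, 0.611%, 0.455% and 0.510% of all peaks. With 33 summits that share genes and neighbourhoods, none of these shares was tested.

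The other genes of the pathways, in 4 lists of 69 genes, mostly had summits too. The lists were chosen from textbook knowledge but with earlier results of these data known, so their shares are a description. A summit was in the window of 61 of the 69, where 62.3% of all genes had one. Of the remaining family members and partners, 3 of 5 had a summit: Nab1 (145) and Nab2 (51.2), corepressors of EGR proteins, and Nfat5 (86.9), the factor of the osmotic response. Egr4 and Nfatc4 had none in the optimal list. Of the calcium and calcineurin genes 26 of 29 had a summit, with a median strongest signal of 62.9.

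The highest signals of these pathways lay outside the 9 genes. Itpr1, an endoplasmic calcium channel gene, reached 382 (190 in replicate 1 and 193 in replicate 2), Ppp3ca, a catalytic subunit of calcineurin, 359 (157 and 202), and Ppp3cc, another catalytic subunit, 208 (76.4 and 131). In the ERK, SRF and CREB list 19 of 21 had a summit, with a median strongest signal of 140.5. Rasgrp3, which activates Ras in B cells, reached 430.5 (184 and 245 in the replicates), Crtc2, a coactivator of CREB, 345 (167 and 178), and Mkl2, now Mrtfb, a coactivator of SRF, 305 (141 and 164). Of the other immediate early and feedback genes 13 of 14 had a summit, led by Ier5 (265), the phosphatase gene Dusp2 (188) and Zfp36 (167), which encodes an mRNA decay factor. For the 9 genes the median strongest signal was 86.8, and for all genes with a summit it was 58.3. A maximum can rise with the number of summits, whose median was 4 for the 9 genes and 2 for all genes with a summit. Itpr1 and Ppp3ca had 29 summits each, in windows of 358 and 288 kb. Strongest signals were not adjusted for this.

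**Figure D4:**
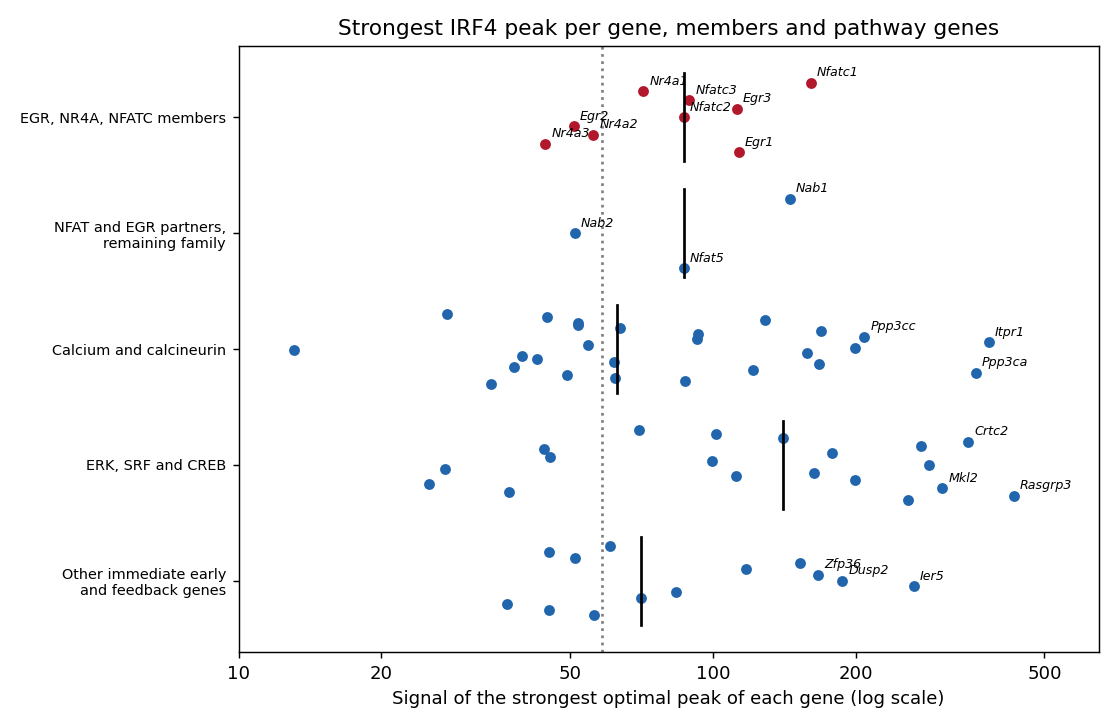
Signal of the strongest optimal peak of each gene (x axis, log scale), for the 9 genes (red, top row) and for 4 lists of pathway genes (blue); black bars are medians over genes with a summit and the dotted line is the median over all such protein-coding genes (58.3). Nfatc1 (161) leads the 9, and Itpr1 (382), Ppp3ca (359) and Rasgrp3 (430.5) lie beyond it.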

How the data were processed

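IRF4 binding was analysed from 5 of 6 deposited peak lists in narrowPeak format, without the pooled one. Per the labels and the deposited file descriptions, relaxed lists on mm10 of replicate 1 (215095 peaks), replicate 2 (300000) and both pooled fed the optimal (44058) and conservative (35879) IDR lists, and the mm9 list came from both mm9 alignments. The signal of each peak is the value the authors deposited. Neither caller nor aligner is named, and read numbers are not given, so depth is unknown, and replicate signals were compared only at matched summits. Nothing says whether the replicates were separate cultures.

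A summit was the start of the peak plus the offset, in bases, that the authors deposited with it. Gene bounds came from RefSeq GRCm38.p6, and strand from GENCODE M1 or the RefSeq promoter table, so that 21318 of 21631 protein-coding genes had a known start. On mm9 the gene bounds came from GENCODE M1. Replicate summits were the nearest within 100 bp. Motifs were searched within 50 bp of mm9 summits in the NCBIM37 sequence. The 9 genes and 4 pathway lists were chosen with earlier results of these data known. Named in the text are all summits of genes with up to 5, the 4 strongest and those within 1 kb of the start for others, and the 3 strongest genes of each pathway list; further Nfatc1, Nfatc2 and Nfatc3 summits were named after their values were seen. Counting, matching and motif search were tested on simulated data. Python 3.11.15, numpy 2.4.6, pandas 2.3.3, scipy 1.17.1, pysam 0.24.0, samtools 1.23.1 and matplotlib 3.10.9 were used. Other flanks, lists, matching distances and windows were tried.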

Additional observations from a re-analysis of the deposited data

How the results depend on the processing

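Flanks of 25 and 50 kb contain the 10 kb window, so all 9 genes keep a summit there by construction. Merging summits within 200 bp changed no count at the 9 genes. Each of the 9 genes kept a summit in the conservative list, at or above the median signal and with either replicate alone. With the gene body alone 7 did, without Egr1 and Egr3, and with a 5 kb flank 8, without Egr3. The total of 59 summits was 37 in gene bodies alone, 50 with 5 kb, 76 with 25 kb and 95 with 50 kb. It was 26 at or above the median signal, 33 without Nfatc1 (chosen after seeing the data), 44 in the conservative list, some at intervals not in the optimal list, and 56 to 57 when the 44058 strongest peaks of 1 replicate were used. The median per gene was 1 in gene bodies, 7 with 25 kb, 10 with 50 kb and 2 at or above the median signal. The share of all genes with a summit was 41.9% in gene bodies, 57.3% with 5 kb, 70.8% with 25 kb, 77.4% with 50 kb, 57.4% in the conservative list, 44.9% at or above the median signal, and 62.3% to 63.7% with 1 replicate.

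Matches in both replicates numbered 37 within 50 bp and 54 within 200 bp, with median log2 ratios of 0.51 and 0.36. Summits near the gene start numbered 12 within 2500 bp, 5 within 500 bp and 1 in the conservative list. They numbered 12 with every listed start of the gene counted. For any protein-coding gene they numbered 9 with the outer start and 14 with every listed start. EICE, like any IRF element, was in 3.03% of windows of 25 bp either side and 12.1% of 100 bp. The other motif shares stayed within their Wilson intervals, which are wide for 33 windows. The NFAT share still rose with the window, from 9.09% at 25 bp to 33.3% at 100 bp. Its share of all mm9 peaks rose too, from 6.95% to 22.1%. No paired analysis was possible because the samples form 1 group. With no read numbers, weak summits cannot be told from sites missed in 1 replicate.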

Other observations

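Farther out, Egr3 had a row of summits upstream that the 10 kb window leaves out, chosen for description after the values were seen. From 11034 to 48774 bp before its start, 7 more optimal summits had Egr3 as the gene of the nearest protein-coding start. The strongest, 48774 bp upstream (chromosome 14, 70028477 to 70028580, mm10), had a signal of 185, with 79.1 in replicate 1 and 104 in replicate 2. Those 11034 and 19812 bp upstream had 134 (60.3 and 73.1 in replicates 1 and 2) and 129 (32.8 and 97.0). All 3 exceeded the 112 of the strongest summit inside the window. Egr2 likewise had 5 more summits upstream within 50 kb, all nearest to its own start, of which the strongest, 49918 bp away, had 80.2. Nr4a1 gained 7 summits within 50 kb of either end, of which 1, 12972 bp upstream with 27.2, was nearest to its own start. Those downstream of Nr4a1 were nearest to Smim41. Egr3 and Egr2 also gained summits downstream, nearest to Bin3 and Ado. Which gene any of these sites serves was not tested.

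The outer pair of Nfatc3 summits, 6161 and 5931 bp before the start, was matched by 1 replicate each: the first by replicate 1 (32.1) and the second by replicate 2 (29.7). At Nr4a2 the conservative list had 2 peaks, 6801 and 7214 bp after the start (24.8 and 13.1), that the optimal list lacked as intervals, 605 and 1018 bp from its nearest summit.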
